A study of Mus musculus with 16 samples.

Results

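The 5 genes described here are the erythrocyte genes Hba-a1, Hba-a2, Hbb-bs, Hbb-bt and Alas2, chosen by symbol out of 39328 genes in the table, with 1 row each. They were followed as a trace of blood in the mouse colon. RNA was sequenced from colons of adult ICR mice, an outbred stock, with a wild-type genotype in every group. The 4 groups of 4 libraries were CON_VD (born by vaginal delivery, normal drinking water), CON_CS (born by cesarean section, normal drinking water), DSS_VD (vaginal delivery, 3% DSS) and DSS_CS (cesarean section, 3% DSS). DSS, dextran sulfate sodium, is a polymer that injures the lining of the colon, and water or DSS was given for 8 days. Separate mice, litters and pooling of tissue are not described in the labels, and the spread behind each p-value is that between libraries, which may be technical. All values are FPKM, fragments scaled by gene length and library depth, as deposited.

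Hemoglobin is a tetramer of 2 alpha and 2 beta chains, each holding a heme group that binds oxygen. Hba-a1 and Hba-a2 encode the adult alpha chain, Hbb-bs and Hbb-bt encode adult beta chains, and Alas2 is the erythroid form of the first enzyme of heme synthesis. Mammalian erythrocytes have no nucleus and make no new RNA, but reticulocytes, the youngest circulating red cells, still carry large amounts of globin mRNA. Colitis caused by DSS is known for bleeding into the gut. In a bulk sample, fewer cells of a type and less RNA per cell cannot be told apart, nor can blood inside vessels and blood outside them.

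All 5 genes are protein-coding, and their positions are from GENCODE on GRCm38. The alpha genes lie on chromosome 11 in the same orientation, Hba-a1 (ENSMUSG00000069919) at chr11:32283511-32284465 and Hba-a2 (ENSMUSG00000069917) at chr11:32296489-32297298, 12978 bases apart from start to start. The beta genes lie on the minus strand of chromosome 7, Hbb-bs (ENSMUSG00000052305) at chr7:103826534-103828096 and Hbb-bt (ENSMUSG00000073940) at chr7:103812524-103813996, 14100 bases apart. Alas2 (ENSMUSG00000025270) is on the plus strand at chrX:150547375-150570638.

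The 250 bases before the RefSeq start of each gene were taken from RefSeq (GRCm38.p6), where 5 of 5 genes matched. These starts lie downstream of the GENCODE starts given above, so the end of each window falls inside the GENCODE span. The 4 printed here show what the promoters of genes that moved together share in sequence. Hba-a1 is left out because its window has 0 mismatches to that of Hba-a2 over 247 shared bases. Capitals mark the GATA motif, the CACCC box, the CCAAT box and the TATA-like ATATAA on either strand, letters that match known erythroid or general promoter elements. The windows are chr11:32296242-32296491 (plus strand), chr7:103827929-103828178 (minus), chr7:103813924-103814173 (minus) and chrX:150547167-150547416 (plus), each written 5′ to 3′.
Hba-a2: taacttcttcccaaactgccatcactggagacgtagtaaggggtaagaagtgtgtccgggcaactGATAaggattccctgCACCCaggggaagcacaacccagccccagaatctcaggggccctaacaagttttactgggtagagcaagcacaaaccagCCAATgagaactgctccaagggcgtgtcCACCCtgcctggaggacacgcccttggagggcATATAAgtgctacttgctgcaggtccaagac
Hbb-bs: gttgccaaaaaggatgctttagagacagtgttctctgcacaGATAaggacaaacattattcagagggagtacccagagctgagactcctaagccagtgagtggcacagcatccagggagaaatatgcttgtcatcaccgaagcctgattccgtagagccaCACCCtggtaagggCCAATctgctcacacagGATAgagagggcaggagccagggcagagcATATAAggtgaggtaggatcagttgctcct
Hbb-bt: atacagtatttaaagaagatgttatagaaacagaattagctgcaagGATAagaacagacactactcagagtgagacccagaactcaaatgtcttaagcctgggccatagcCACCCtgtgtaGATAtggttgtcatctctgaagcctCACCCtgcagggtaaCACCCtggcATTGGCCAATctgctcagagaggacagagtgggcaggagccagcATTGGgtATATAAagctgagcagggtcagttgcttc
Alas2: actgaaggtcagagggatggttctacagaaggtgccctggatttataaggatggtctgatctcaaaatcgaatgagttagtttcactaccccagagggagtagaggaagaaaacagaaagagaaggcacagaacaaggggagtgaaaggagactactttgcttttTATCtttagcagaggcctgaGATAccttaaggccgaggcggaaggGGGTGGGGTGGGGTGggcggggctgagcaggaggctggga
The Hba-a2 window held GATA 1 time, the CACCC box 2 times, the CCAAT box 1 time and ATATAA 1 time. Hbb-bs held GATA 2 times and each of the other 3 motifs 1 time. Hbb-bt held GATA 2 times, the CACCC box 3 times, the CCAAT box 3 times and ATATAA 1 time, and 1 pair of its CCAAT matches, on opposite strands, lie side by side. The Alas2 window held GATA 2 times and the CACCC box 3 times, with 0 matches to the CCAAT box and 0 to ATATAA. No match overlapped a match to another of the 4 motifs in these windows. Among 32851 promoter windows of this length, 53.6% held GATA, 52.0% the CACCC box, 33.8% the CCAAT box and 9.1% ATATAA, and 1.02% held all 4, as each hemoglobin window did. A match is a description of letters and not a site.

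The copies within each pair are nearly alike in what can be sequenced. The coding sequences of Hba-a1 and Hba-a2, 429 bases each, differed at 1 base (99.8% the same), and 87.1% of the 50-base windows of Hba-a2's coding sequence also occur in Hba-a1. Hbb-bs and Hbb-bt, 444 coding bases each, also differed at 1 base (99.8% the same), with 92.9% of the coding windows shared, although over whole transcripts only 58.3% of the windows of Hbb-bt occur in Hbb-bs. No source used here tells how reads that fit both copies were assigned. The level of a single copy is therefore uncertain. The sum of a pair may also depend on this, since shared reads may have been dropped or counted more than once. The transcripts compared also differ in length, 699 against 554 bases for Hba-a1 and Hba-a2 and 628 against 703 for Hbb-bs and Hbb-bt.

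The 16 libraries summed to between 280135 and 343423 FPKM and listed between 24150 and 26328 genes above 0. All 13 pan-epithelial genes checked had a mean of at least 1 FPKM on water, as the labelled tissue would have. Pbsn, a gene of the prostate and seminal vesicle, was at 185 FPKM in CON_CS replicate 1, 128 FPKM in DSS_CS replicate 3 and 1355 FPKM in DSS_CS replicate 4, and at or under 0.526 FPKM in the other 13 libraries. Both DSS_CS libraries with Pbsn are also the 2 with the most hemoglobin RNA, so the members' differences that include these libraries are also given without the 3. The part of such tissue in the results was not tested.

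By group mean, hemoglobin RNA was lowest in CON_CS, higher in CON_VD, higher again in DSS_VD and highest in DSS_CS. Hba-a1 was at 101, 14.0, 32.8 and 31.7 FPKM in CON_VD replicates 1 to 4 and at 13.3, 9.90, 8.03 and 12.9 FPKM in CON_CS. Under DSS it was at 201, 109, 72.2 and 278 FPKM in DSS_VD and at 633, 239.8, 2509 and 1759.5 FPKM in DSS_CS. All 4 CON_CS libraries lay below all CON_VD libraries, CON_VD replicate 1 lay within the range of DSS_VD, and DSS_CS replicate 2 lay below DSS_VD replicate 4.

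Hba-a2, the second adult alpha gene, was at 35.2, 8.63, 11.4 and 22.1 FPKM in CON_VD and at 8.72, 6.60, 5.89 and 4.52 FPKM in CON_CS. It was at 67.4, 46.7, 24.7 and 126 FPKM in DSS_VD and at 402, 157, 1785 and 1250.4 FPKM in DSS_CS. The DSS_CS libraries all lay above the DSS_VD libraries, which held for this gene alone among the 5, and the ranges of the other neighbouring groups overlapped.

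Hbb-bs, the more abundant beta gene, was at 125, 20.2, 41.1 and 44.1 FPKM in CON_VD and at 19.7, 14.2, 11.4 and 15.97 FPKM in CON_CS. It was at 246, 172, 86.2 and 351 FPKM in DSS_VD and at 930.2, 317, 3287 and 2538 FPKM in DSS_CS. The order of groups was that of the alpha genes, with CON_VD and CON_CS apart by less than 1 FPKM at their nearest libraries and DSS_CS replicate 2 within the range of DSS_VD.

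Hbb-bt was at 69.5, 10.7, 21.5 and 22.3 FPKM in CON_VD and at 5.70, 3.94, 3.02 and 9.08 FPKM in CON_CS. It was at 147, 101, 57.1 and 216 FPKM in DSS_VD and at 529, 185, 2108 and 1570.5 FPKM in DSS_CS. CON_CS again lay wholly below CON_VD, and DSS_VD overlapped both of its neighbours in the order.

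Alas2 had far lower levels per gene length than the globins. It was at 0.953, 0.123, 0.443 and 0.487 FPKM in CON_VD and at 0.385, 0.181, 0.0627 and 0.158 FPKM in CON_CS. It was at 2.85, 1.16, 0.787 and 4.23 FPKM in DSS_VD and at 10.7, 4.08, 41.3 and 30.9 FPKM in DSS_CS. The ranges of CON_VD and CON_CS overlapped, as did those of CON_VD and DSS_VD and those of DSS_VD and DSS_CS.

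The 4 hemoglobin genes together made up 0.0459% ± 0.0349 of all FPKM in CON_VD, 0.0125% ± 0.00279 in CON_CS, 0.188% ± 0.108 in DSS_VD and 1.73% ± 1.43 in DSS_CS (SD, n = 4). Their sum ran from 28.4 FPKM in CON_CS replicate 3 to 9689.8 FPKM in DSS_CS replicate 3, a 342-fold range. Within a group the highest library exceeded the lowest by 6.19-fold in CON_VD, 1.67-fold in CON_CS, 4.04-fold in DSS_VD and 10.8-fold in DSS_CS. The spread between libraries of a group was thus smallest in CON_CS and largest in DSS_CS, where replicates 1 and 2 gave 0.831% and 0.306% and replicates 3 and 4 gave 3.46% and 2.31%.

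**Figure D1:**
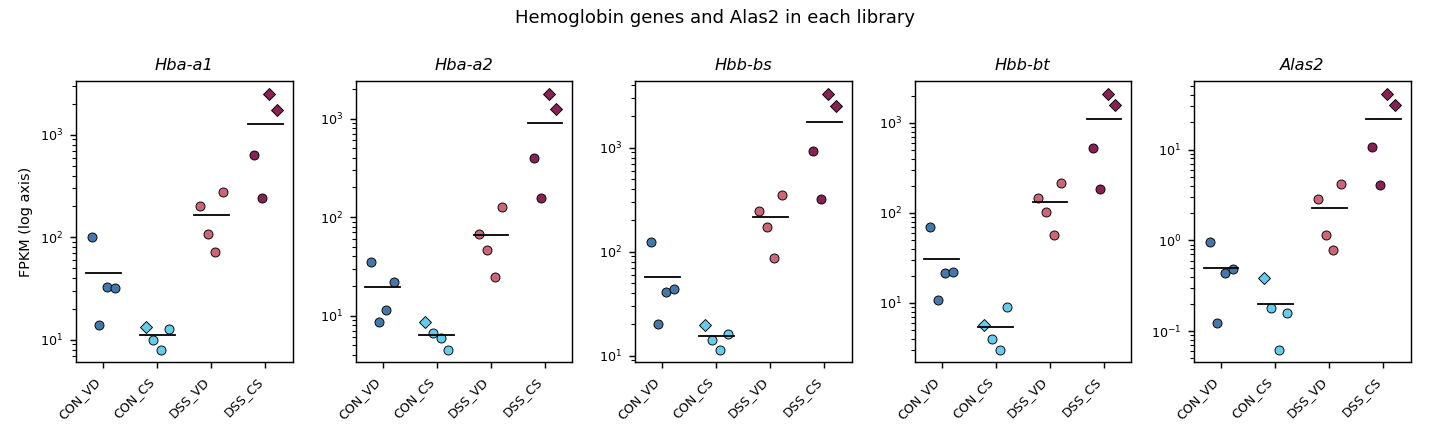
FPKM (log axis) of the 5 genes in each library, by group. Bars are group means (n = 4), and diamonds are the 3 libraries with Pbsn at or above 128 FPKM. All 5 panels have the same order of group means, with DSS_CS on top and its 2 diamonds highest.

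The DSS response in mice born by cesarean section was the largest of the comparisons for these genes. All 5 genes tested passed the threshold (limma on log2(FPKM + 1), Benjamini-Hochberg adjusted p below 0.05 over all genes tested) and were higher, beside 34.4% of the 14372 genes tested. For Alas2 the direction was fixed by the filter on low values, as described below. The mean FPKM of Hba-a1 rose from 11.02 ± 2.50 to 1285 ± 1039 (SD, n = 4), 117-fold, a log2 difference of 6.26 ± 0.65 (SE) with a limma adjusted p of 4.54e-05. Hba-a2 rose 140-fold from 6.43 ± 1.75 to 898 ± 754 FPKM, a log2 difference of 6.40 ± 0.68. Hbb-bs rose 116-fold from 15.3 ± 3.46 to 1768 ± 1379 FPKM, with 6.29 ± 0.66 on the log2 scale.

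Hbb-bt had the largest change of the 5, 202-fold from 5.44 ± 2.67 to 1098 ± 895 FPKM, with a log2 difference of 6.96 ± 0.71 and a limma adjusted p of 4.01e-05. Alas2 rose 110-fold from 0.197 ± 0.136 to 21.7 ± 17.3 FPKM. Its log2 difference was only 3.82 ± 0.59 (limma adjusted p = 4.85e-04), since adding 1 FPKM understates the change of a gene this low. The lowest DSS_CS library was above the highest CON_CS library for 5 of 5 genes, as it was for 32.9% of all genes tested. Alas2 was at most 0.385 FPKM in CON_CS and met the filter on low values only because all 4 DSS_CS libraries were at 1 FPKM or more. Its direction and its separate ranges were thus fixed by the filter. Without the 3 libraries with Pbsn the 4 hemoglobin genes still passed, at log2 differences of 5.14 to 5.74, and Alas2 fell below the filter on low values.

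In mice born by vaginal delivery, DSS raised the 4 hemoglobin genes by a smaller amount. All 4 tested passed and were higher, beside 24.0% of 13933 genes tested. Hba-a1 rose 3.66-fold from 44.99 ± 38.6 to 165 ± 92.7 FPKM, a log2 difference of 2.01 ± 0.59 with a limma adjusted p of 0.0226. Hba-a2 rose 3.42-fold from 19.3 ± 12.1 to 66.1 ± 43.4 FPKM, with 1.68 ± 0.53 on the log2 scale and a limma adjusted p of 0.0314.

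Hbb-bs rose 3.72-fold from 57.5 ± 46.1 to 214 ± 112 FPKM, a log2 difference of 2.01 ± 0.56 (limma adjusted p = 0.0186). Hbb-bt rose 4.21-fold from 31.0 ± 26.2 to 131 ± 68.0 FPKM, a log2 difference of 2.20 ± 0.55 (limma adjusted p = 0.0115). Alas2 was too low for the fit, at 0.501 ± 0.342 FPKM on water and 2.26 ± 1.59 FPKM under DSS, with a difference of 1.01 in log2(FPKM + 1) and a two-sided exact permutation p of 0.0571, where 0.0286 is the smallest that 70 splits allow. The ranges of CON_VD and DSS_VD overlapped for all 5 genes, through CON_VD replicate 1. The number passing fell to 1 without DSS_VD replicate 1 or without DSS_VD replicate 4, and to 2 without CON_VD replicate 2 or without CON_VD replicate 3.

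Under DSS, mice born by cesarean section had more hemoglobin RNA than mice born vaginally, and 3 of the 5 genes passed the threshold. All 3 were higher, beside 7.89% of 14313 genes tested. Hba-a2 was 13.6-fold higher in mean FPKM, a log2 difference of 3.43 ± 0.79 (SE) with a limma adjusted p of 0.0346. Hbb-bs was 8.26-fold higher, with 2.72 ± 0.75 on the log2 scale and a limma adjusted p of 0.0473. Alas2 was 9.62-fold higher, with 2.50 ± 0.66 on the log2 scale and a limma adjusted p of 0.0438.

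Hba-a1 and Hbb-bt did not pass, at log2 differences of 2.64 ± 0.74 (limma adjusted p = 0.0504) and 2.68 ± 0.76 (limma adjusted p = 0.0508), 7.80-fold and 8.41-fold in mean FPKM. By log2 difference the genes ranked 2 (Hba-a2), 4 (Hbb-bs), 5 (Hbb-bt), 6 (Hba-a1) and 9 (Alas2) among all 14313 genes tested, whose median was 0.06. The ranges of the groups were apart for Hba-a2 alone, as they were in that direction for 15.3% of all genes tested. These calls lie near the threshold. Without the libraries with Pbsn 0 of 5 passed, at log2 differences of 1.38 to 2.14 and limma adjusted p of 0.143 to 0.235, with 2 of 5 at an unadjusted p below 0.05. The number passing was 2 without DSS_CS replicate 1 and 0 without any 1 of the other 7 libraries, with all 5 at an unadjusted limma p below 0.05 in each of these 8 fits.

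On water the direction was the opposite: hemoglobin was lower in mice born by cesarean section, but no member passed the threshold. The genes tested and called lower were 0 of 4, beside 0.226% of 13275 genes tested. Hba-a1 was at 0.245 of its CON_VD mean, a log2 difference of -1.61 ± 0.49 (limma adjusted p = 0.151). For Hba-a2 the log2 difference was -1.29 ± 0.39 (limma adjusted p = 0.146), and for Hbb-bs it was -1.57 ± 0.46 (limma adjusted p = 0.140).

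Hbb-bt differed most on water, by -2.08 ± 0.50 on the log2 scale at 0.175 of its CON_VD mean (limma adjusted p = 0.107). All 4 had an unadjusted limma p below 0.05. Alas2 differed by -0.31 in log2(FPKM + 1), with a two-sided exact permutation p of 0.143. The 4 CON_CS libraries lay below the 4 CON_VD libraries for Hba-a1, Hbb-bs and Hbb-bt, as they did for 4.41% of all genes tested, and overlapped them by 1 library, CON_CS replicate 1, for Hba-a2. Leaving out any 1 of the 8 libraries also gave 0 called members.

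The DSS response differed between delivery groups for all 5 genes in the test of the difference itself. The difference of the responses, CS minus VD, passed for 5 of 5 genes and was positive, beside 6.68% of 15233 genes tested that were positive and 6.55% that were negative. It was 4.25 ± 0.96 for Hba-a1 (limma adjusted p = 0.0153), 4.72 ± 0.94 for Hba-a2 (0.0113) and 4.28 ± 0.94 for Hbb-bs (0.0139). For Hbb-bt it was 4.76 ± 0.98 (limma adjusted p = 0.0119) and for Alas2 2.81 ± 0.73 (limma adjusted p = 0.0252). The difference sums the higher level in DSS_CS and the lower level in CON_CS, and the comparisons above share their groups with it. Without the libraries with Pbsn it was 3.13, 3.57, 3.20, 3.54 and 1.75 in the same order of genes, and only Hba-a2 passed (limma adjusted p = 0.0384, the others 0.0532 to 0.0850).

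**Figure D2:**
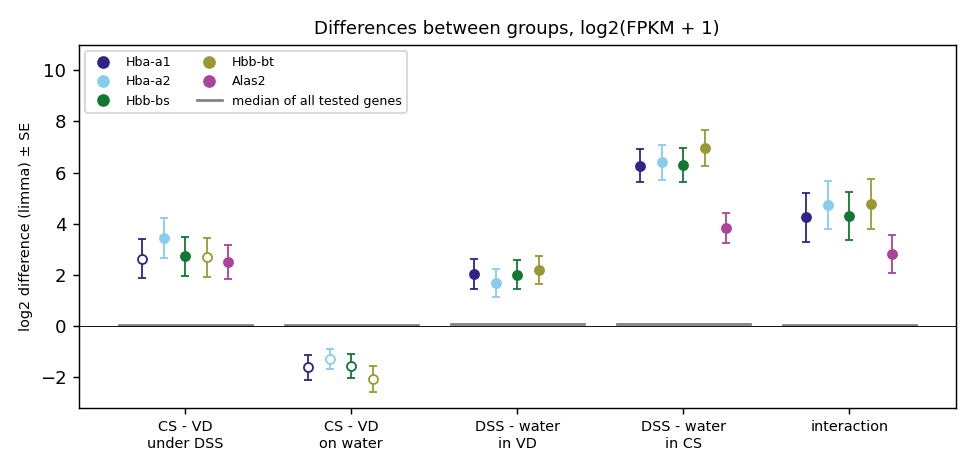
Log2 differences (limma, log2(FPKM + 1)) with SE for each comparison. Filled circles passed the threshold and open circles did not, grey lines are the median of all genes tested, and Alas2 is missing where it was too low for the fit. The DSS response in CS mice is the largest, at 6.26 to 6.96 for the hemoglobin genes.

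The proportions within each pair varied between libraries. The ratio of Hbb-bt to Hbb-bs was 0.557, 0.527, 0.524 and 0.505 in CON_VD and 0.290, 0.279, 0.265 and 0.568 in CON_CS. It was 0.598, 0.588, 0.663 and 0.615 in DSS_VD and 0.569, 0.582, 0.641 and 0.619 in DSS_CS. CON_CS replicates 1 to 3 thus stood below the other 13 libraries, in which the ratio was 0.505 to 0.663. All 8 DSS libraries, at 0.569 or more, lay above all 8 water libraries, the nearest being CON_CS replicate 4. CON_CS replicates 1 to 3 are also among the 4 libraries with the least hemoglobin. In laboratory mice the adult beta genes come in inherited haplotypes, of which one carries Hbb-bs and Hbb-bt and another carries Hbb-b1 and Hbb-b2. Hbb-b1 and Hbb-b2 were not analysed here, and the labels do not give the haplotypes of these outbred mice.

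The ratio of Hba-a2 to Hba-a1 fell in a low and a high range. It was 0.347, 0.617, 0.348 and 0.698 in CON_VD and 0.657, 0.667, 0.733 and 0.351 in CON_CS. It was 0.335, 0.430, 0.342 and 0.453 in DSS_VD and 0.634, 0.654, 0.711 and 0.711 in DSS_CS. Hba-a2 made up 25.1 to 31.2% of alpha-globin FPKM in DSS_VD and 38.8 to 41.6% in DSS_CS, with no overlap, while both water groups held libraries of each kind. The larger difference of Hba-a2 than of Hba-a1 under DSS, 3.43 against 2.64, goes with this split. Fitted as sums, the alpha pair differed by 2.91 (limma adjusted p = 0.0422) and the beta pair by 2.71 (limma adjusted p = 0.0489). Without the libraries with Pbsn, an alternative chosen after seeing the data, neither passed, at 1.67 (limma adjusted p = 0.193) and 1.48 (0.229). The ratio of beta to alpha sums was steadier, at 1.04 to 1.76 over all 16 libraries.

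**Figure D3:**
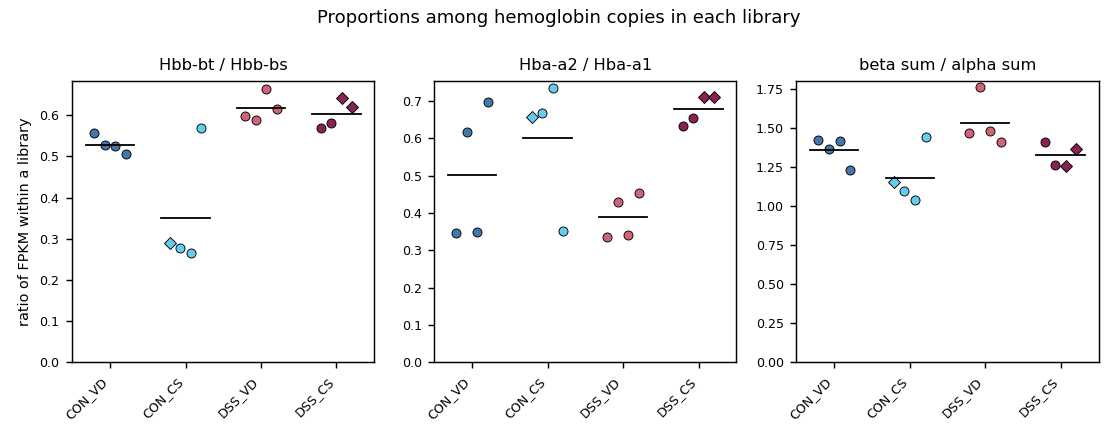
Ratios of FPKM within a library for Hbb-bt to Hbb-bs, Hba-a2 to Hba-a1 and the beta to the alpha sum, by group. Bars are group means (n = 4) and diamonds the 3 libraries with Pbsn. CON_CS replicates 1 to 3 have Hbb-bt to Hbb-bs ratios of 0.265 to 0.290, below all other libraries, and the alpha ratios of DSS_VD and DSS_CS do not overlap.

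Alas2 followed hemoglobin across libraries. Over the 16 libraries its log2(FPKM + 1) had a Pearson correlation of 0.96 with the mean of the 4 hemoglobin genes, and 0.94 after the group means were removed, as descriptions of libraries that share groups. Over the 13 libraries without Pbsn these were 0.95 and 0.90. Per 1000 FPKM of hemoglobin there were 4.26 to 4.54 FPKM of Alas2 in DSS_CS and 2.71 to 4.36 FPKM in DSS_VD. On water the same quantity was 2.31 to 4.15 FPKM in CON_VD and 2.21 to 8.14 FPKM in CON_CS, where Alas2 itself was at most 0.385 FPKM. The proportion was most even in DSS_CS, whose libraries with and without Pbsn had nearly the same value.

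**Figure D4:**
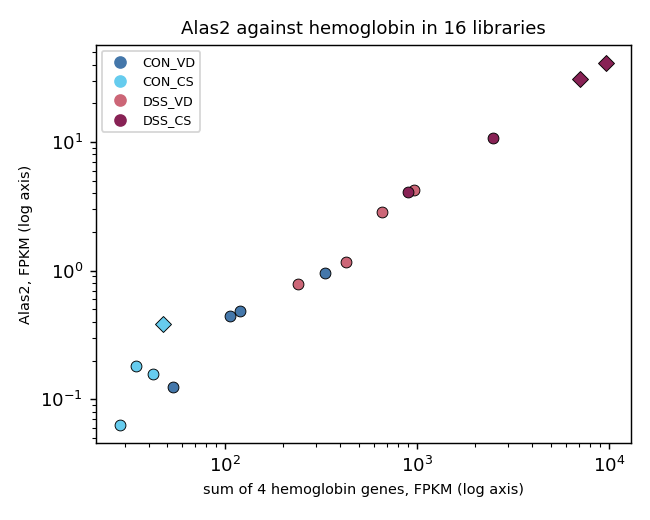
Alas2 FPKM against the summed FPKM of the 4 hemoglobin genes in 16 libraries (both axes log), coloured by group, with diamonds for the 3 libraries with Pbsn. Libraries with more hemoglobin had more Alas2, from 0.0627 FPKM at the lowest hemoglobin sum of 28.4 FPKM to 41.3 FPKM at the highest of 9689.8 FPKM.

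Of the other globin genes, most were near 0 and Cygb had the members' order of group means. Of 11 listed, 6 were in the table and the embryonic Hba-x, Hbb-y and Hbb-bh2 and the adult Hbb-b1 and Hbb-b2 were not analysed here. The embryonic gene Hbb-bh1 was listed at 0 in all 8 water libraries and averaged 0.244 ± 0.288 FPKM in DSS_CS. Cygb, the globin of fibroblast-like cells, rose with DSS by 2.14 ± 0.12 on the log2 scale in CS mice (limma adjusted p = 1.62e-06) and by 1.25 ± 0.20 in VD mice (0.00118). Its response was larger in CS mice by 0.90 ± 0.25 (limma adjusted p = 0.0305), 1 of 2 tested beside 6.68% of all genes, and 0 of 2 without the libraries with Pbsn. With the mean FPKM at 5.53 ± 1.07 in CON_CS, 7.51 ± 1.73 in CON_VD, 19.3 ± 4.56 in DSS_VD and 27.6 ± 1.91 in DSS_CS (SD, n = 4), Cygb spanned a far smaller range than the members. Mb, the muscle globin, averaged at most 0.0125 FPKM in any group.

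Most genes of the red cell membrane were too low to test, and those that were not are also made by other cells. Of 16 listed, 4 were tested under DSS between delivery groups and 0 passed (median log2 difference 0.36, against 0.06 over all genes tested). Slc4a1, the anion exchanger band 3, was listed at 0 or at most 0.0191 FPKM on water. It was at 0.139, 0.124, 0.0436 and 0.307 FPKM in DSS_VD and at 0.542, 0.132, 2.63 and 1.79 FPKM in DSS_CS, chosen as an example after its values were seen.

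Slc4a1 was highest in the 2 DSS_CS libraries with the most hemoglobin, and its DSS_VD and DSS_CS ranges overlapped. With DSS in CS mice, Gypc (1.78 ± 0.13, limma adjusted p = 5.30e-06) and the water channel Aqp1 (1.14 ± 0.13, 7.13e-05) rose and Ermap fell by 2.92 ± 0.35, with 2 of 5 tested higher and 1 lower, beside 34.4% and 25.9% of all genes. Without the libraries with Pbsn 2 of 4 were higher and 1 lower. In VD mice Gypc rose by 1.17 ± 0.16 (limma adjusted p = 5.18e-04), 1 of 4 tested beside 24.0% of all genes, with 0 lower.

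Late erythroid genes changed in both directions with DSS. Under DSS between delivery groups 1 of 16 tested was higher, close to the 7.89% of all genes, and 0 were lower, with a median log2 difference of 0.07. With DSS in CS mice 7 of 16 late erythroid genes were higher and 5 lower, and in VD mice 4 of 15 were higher and 4 lower, beside 34.4% higher and 25.9% lower of all genes in CS mice and 24.0% and 17.0% in VD mice. Without the libraries with Pbsn 5 of 13 were higher and 4 lower in CS mice. Car2, a carbonic anhydrase that colonocytes also make, fell by 3.06 ± 0.33 in CS mice (limma adjusted p = 6.13e-05) and by 2.50 ± 0.15 in VD mice (1.07e-05). Mkrn1 fell by 1.42 ± 0.14 in CS mice (limma adjusted p = 3.65e-05), while Trim10 rose by 1.60 ± 0.19 (8.42e-05) and Blvrb, a biliverdin reductase, by 0.71 ± 0.10 (2.11e-04). Under DSS, Trim10 averaged 5.16 ± 2.04 FPKM in DSS_VD and 2.31 ± 0.90 FPKM in DSS_CS (SD, n = 4), the reverse of the members' order.

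Of the erythroid transcription factors and receptors, 4 of 6 tested were higher with DSS in CS mice and 1 lower, beside 34.4% and 25.9% of all genes, and in VD mice 1 of 5 was higher and 2 lower, beside 24.0% and 17.0%. Lmo2, which endothelial and myeloid cells also make, rose by 1.89 ± 0.12 in CS mice (limma adjusted p = 3.04e-06) and by 1.78 ± 0.27 in VD mice (8.31e-04). The difference of responses passed for 2 of 7, Nfe2 and Ldb1, beside 6.68% of all genes. Gata1 and Klf1 were low in every library. Gata1, the main erythroid and megakaryocyte factor, was at or under 0.0261 FPKM on water and at 0.0895 to 0.363 FPKM under DSS. Klf1, which activates the adult beta-globin gene, was at most 0.282 FPKM in any library and listed at 0 in DSS_CS replicates 2, 3 and 4, among them the 2 libraries with the most globin. Nfe2, a factor of erythroid cells, megakaryocytes and some myeloid cells, passed between delivery groups under DSS, 1 of 7 tested beside 7.89% of all genes. It was at 0.244, 0.384, 0.449 and 0.975 FPKM in DSS_VD and at 1.52, 1.47, 1.70 and 2.22 FPKM in DSS_CS, a log2 difference of 0.87 ± 0.16 (limma adjusted p = 0.0313).

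The enzymes of heme synthesis other than Alas2 mostly did not pass. Of 10 tested under DSS between delivery groups, 1 was higher and 1 lower, beside 7.89% and 5.54% of all genes, with a median log2 difference of -0.04. Alas1, the form of the first enzyme that all cells use, differed in the opposite direction to Alas2: it was at 22.0 ± 4.67 FPKM in DSS_VD and 12.6 ± 2.23 FPKM in DSS_CS (SD, n = 4), a log2 difference of -0.75 ± 0.17 (limma adjusted p = 0.0337). Urod, a later enzyme of the pathway, was higher by 0.46 ± 0.13 (limma adjusted p = 0.0461). Alas1 rose with DSS in VD mice by 0.89 ± 0.15 (limma adjusted p = 0.00156), and in VD mice 1 of the 10 was higher and 4 lower, beside 24.0% and 17.0% of all genes.

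Genes that take up and break down hemoglobin and heme and handle iron rose widely in CS mice. With DSS in CS mice 18 of 21 tested were higher and 3 lower, beside 34.4% and 25.9% of all genes, with a median log2 difference of 1.18 against 0.06 over all genes tested. In VD mice 10 of 21 were higher and 2 lower, beside 24.0% and 17.0% of all genes, with a median of 0.35. Hp, haptoglobin, which binds free hemoglobin, rose by 6.47 ± 0.16 in CS mice (limma adjusted p = 5.47e-08) and by 4.10 ± 0.41 in VD mice (1.18e-04). Hmox1, heme oxygenase, which opens the heme ring, rose by 2.37 ± 0.19 in VD mice (limma adjusted p = 5.27e-05).

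Between delivery groups under DSS 6 of 22 were higher and 2 lower, beside 7.89% and 5.54% of all genes. Hmox1 was at 17.3, 11.1, 22.8 and 20.02 FPKM in DSS_VD and at 34.7, 61.7, 51.5 and 46.6 FPKM in DSS_CS, a log2 difference of 1.41 ± 0.24 (limma adjusted p = 0.0313). Hp was at 17.4, 11.6, 42.0 and 39.4 FPKM in DSS_VD and at 82.0, 106, 101 and 141 FPKM in DSS_CS, a log2 difference of 2.08 ± 0.40 (limma adjusted p = 0.0313). Both genes were apart between the groups, as 15.3% of all genes tested were in that direction. DSS_CS replicate 2, the lowest of its group for all 5 members, was the highest for Hmox1 and between the others for Hp, and DSS_CS replicate 1 was the lowest for both.

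Steap3, a ferric reductase, was higher by 0.95 ± 0.16 (limma adjusted p = 0.0313), and Heph, the copper oxidase that helps iron leave the epithelium, was lower by 1.35 ± 0.29 on the log2 scale (-1.35, limma adjusted p = 0.0327). Slc40a1, ferroportin, the iron exporter, was lower as well, at 24.0, 23.6, 10.4 and 22.8 FPKM in DSS_VD and at 11.2, 6.15, 5.52 and 7.33 FPKM in DSS_CS, a difference of -1.28 ± 0.29 (limma adjusted p = 0.0345). Heph and Slc40a1 are made by the epithelium, and 7 of 13 pan-epithelial genes were lower in the same comparison and 0 higher. The list's genes are also made by macrophages and neutrophils, and the part of cell numbers was not tested. Cd163, the macrophage receptor for the hemoglobin and haptoglobin complex, did not pass, at 1.56 ± 0.47 (limma adjusted p = 0.0587).

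**Figure D5:**
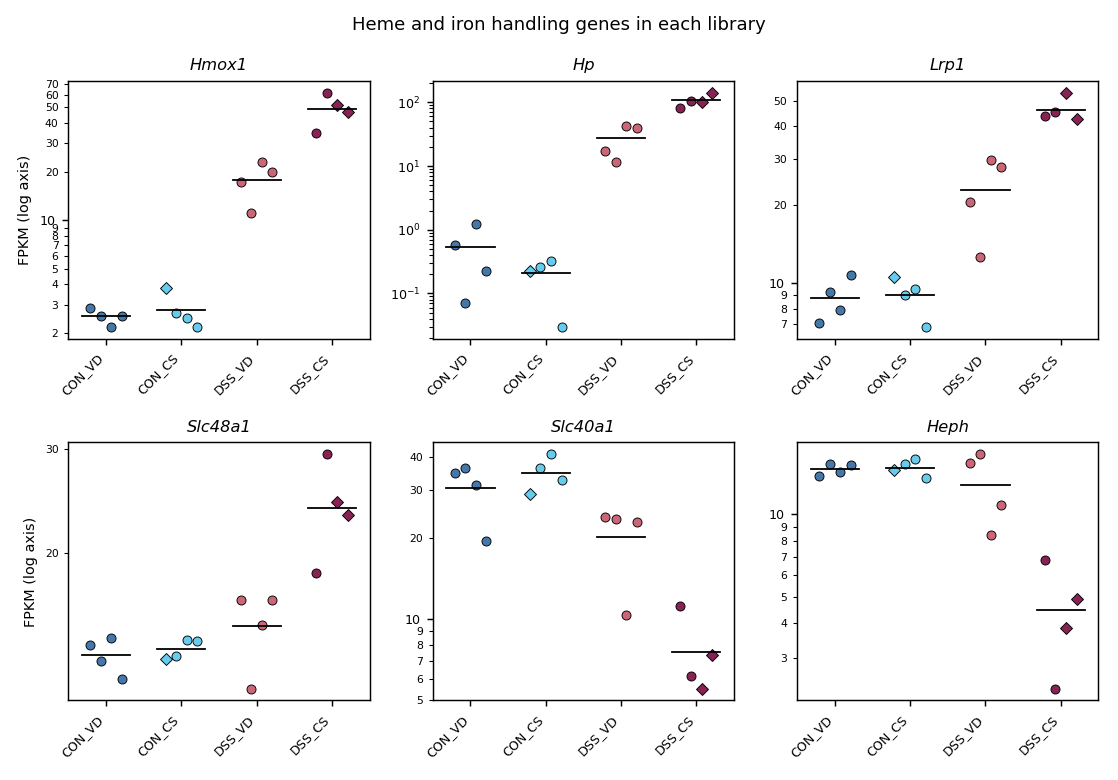
FPKM (log axis) of 6 genes of hemoglobin, heme and iron handling in each library, by group. Bars are group means (n = 4) and diamonds the 3 libraries with Pbsn. Hmox1, Hp, Lrp1 and Slc48a1 are higher in DSS_CS than in DSS_VD and Slc40a1 and Heph lower.

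Markers of other blood and vessel cells mostly rose with DSS, as the members did. On water their summed levels did not share the members' lower level in CON_CS. There the mean sums in CON_VD and CON_CS were 41.8 and 46.2 FPKM for the endothelial, 104 and 113 for the neutrophil and 17.6 and 17.3 for the platelet list. Ly6g alone averaged 103 and 112 FPKM of the neutrophil sums, and Thbs1, Pf4 and Itgb3 made up most of the platelet sums. All other neutrophil and platelet genes listed averaged below 1 FPKM on water, so these sums tell little about them. For the lists in this and the next paragraph, the shares of all genes called higher were 34.4% for DSS in CS mice, 24.0% in VD mice, 7.89% between delivery groups under DSS and 6.68% for the difference of responses. A mean of at least 1 FPKM on water was found for 3 of 16 platelet and 9 of 12 endothelial genes. Platelet genes below it that were tested for a DSS response met the filter only through their DSS libraries, which fixed their direction. Of the platelet list 6 of 6 tested rose with DSS in CS mice and 4 of 4 in VD mice, and between delivery groups under DSS 2 of 6 were higher, Ppbp by 1.5 ± 0.36 (limma adjusted p = 0.0363) and Itga2b by 0.52 ± 0.14 (0.0467). The summed platelet list was at 15.0 to 21.4 FPKM in CON_VD, 16.1 to 18.9 in CON_CS, 63.7 to 159 in DSS_VD and 126 to 362 in DSS_CS. The 12 endothelial genes rose in 11 cases with DSS in VD mice and in 12 in CS mice, and 2 of 12 were higher between delivery groups under DSS, Vwf by 0.84 ± 0.19 (limma adjusted p = 0.0339) and Eng by 0.82 ± 0.21 (0.0405). Their summed level was 37.8 to 43.2 FPKM in CON_VD, 41.9 to 49.1 in CON_CS, 79.1 to 150.1 in DSS_VD and 171 to 219 in DSS_CS.

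Of the neutrophil list 9 of 9 tested rose with DSS in VD mice and 9 of 10 in CS mice, and between delivery groups under DSS 5 of 11 were higher, such as Csf3r by 1.66 ± 0.25 (limma adjusted p = 0.0309), and 2 lower, Ltf and Ly6g. Only 1 of the 14 neutrophil genes had a mean of at least 1 FPKM on water. The others tested for a DSS response met the filter only through their DSS libraries. Their direction was fixed by this, and their counts are no result beside the shares of all genes. The summed pan-epithelial genes were at 6161 to 7396 FPKM in CON_VD, 6717 to 7379 in CON_CS, 3069 to 6648 in DSS_VD and 993 to 3082 in DSS_CS. Summed adipocyte genes were at 4.10 to 107 FPKM in CON_VD, 2.84 to 7.59 in CON_CS, 7.19 to 28.2 in DSS_VD and 31.4 to 194 in DSS_CS. Of this list 4 of 4 tested were higher with DSS in CS mice, 0 of 4 passed in VD mice, 1 of 4 was higher between delivery groups under DSS, and the difference of responses passed for 2 of 4. On water 0 of 3 passed, with a median log2 difference of -1.81 beside -1.59 for the 4 hemoglobin genes tested. Under DSS between delivery groups 0 of 3 skeletal muscle genes and 0 of 10 smooth muscle genes passed. The part of these cells in the hemoglobin differences was not tested. Without the libraries with Pbsn 0 genes of any list passed between delivery groups under DSS. For DSS in CS mice without them 12 genes of the heme and iron list, 3 of the platelet list and 10 of the endothelial list passed, while genes near 0 on water no longer met the filter of 4 libraries, so that 1 gene of the neutrophil list was tested and 0 passed. On water between delivery groups 0 genes of these lists passed the limma test, as 0 of the members did.

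Over the 16 libraries, the genes most like the members among 13077 ranked were Ccrl2, Cd209b, Nlrp3, Trem1, Osm, Stfa2l1, Ccl4 and BC100530, with Pearson correlations of 0.94 to 0.95 with the mean log2(FPKM + 1) of the 4 hemoglobin genes. These are mostly genes of myeloid cells, and their correlations were 0.62 to 0.80 after the group means were removed. Trem1, an amplifying receptor of neutrophils and monocytes, was at 0.00710 to 0.0645 FPKM on water, 2.64 to 5.09 in DSS_VD and 8.22 to 43.5 in DSS_CS. After the group means were removed, the most like genes included Clec2i, Mapkapk5, Med7, Samsn1, Bpgm, Nlrp3 and Hmgb1-ps8, at 0.79 to 0.87. Bpgm (0.80), the enzyme that makes the oxygen-affinity regulator 2,3-bisphosphoglycerate in red cells, is on the late erythroid list. Bpgm was at 8.74 to 10.6 FPKM in CON_VD, 10.2 to 10.6 in CON_CS, 11.3 to 16.8 in DSS_VD and 8.45 to 16.1 in DSS_CS. Its DSS_VD libraries lay above both water groups, while its DSS_CS range overlapped all other groups. For 22.2% of all genes tested the DSS_VD libraries all lay above the CON_VD libraries.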

How the data were processed

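RNA of colon from 16 libraries was analysed. The authors deposited 1 table of FPKM values for 39328 genes, and the labels' protocols name Trizol extraction of total RNA. Per the submitters' processing notes, cutadapt and FastQC were run and the build was GRCm38. Aligner, quantifier, annotation and strandedness: not given in the sources used here. Ensembl identifiers were matched to symbols, and 39181 of 39328 matched. The depth behind the FPKM values is unknown: over 12971 low genes and 120 pairs of libraries at most 0.978% of log2 ratios shared a value, so no step worth 1 read was found, and no counting interval is given.

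Groups came from the labels. Genes with at least 1 FPKM in at least 4 libraries of a comparison were tested on log2(FPKM + 1) with limma 3.58.1 (lmFit, eBayes with trend, R 4.3.3), two-sided, with Benjamini-Hochberg adjustment over all genes tested and a threshold of 0.05. A gene below 1 FPKM in all water libraries of a DSS comparison met this filter only if all 4 DSS libraries were at 1 FPKM or more. Its direction was then fixed, and counts of genes higher with DSS include such genes. The fit was tested on simulated data. A fold change on this scale understates the change of low genes. Members below the filter had an exact permutation test (scipy 1.17.1). Folds of mean FPKM carry no pseudocount. The members and all gene lists were chosen with earlier results of these data known. All 5 members were named in each comparison. From each other list up to 4 genes passing with the smallest p were named, or where none passed up to 2 of the highest mean, and Slc4a1, Gata1, Klf1, Hbb-bh1, Mb, Cd163, Slc40a1, Lrp1 and Slc48a1 were named outside this rule, after their values were seen. Values of some listed genes are not reported here. Alternatives were a pseudocount of 0.1, no filter, median-of-ratios scaling, a replicate block, copies summed, 1 fit on all groups, leaving out the libraries with Pbsn and leaving out each library. Sequences were compared with biopython 1.88 on GENCODE M21 transcripts, taking the longest open reading frame as the coding sequence. No batch or date was given in the labels used here.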

Additional observations from a re-analysis of the deposited data

Results flagged for a closer look

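The ratio of Hbb-bt to Hbb-bs in CON_CS replicate 4 was 0.568, far from the other 3 libraries of its group at 0.265 to 0.290 and within the range of the other groups. It was found as the highest library apart from the rest of its group among 40 groups of values checked, where chance flags about 1 in 20.

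The DSS response was larger in CS than in VD mice by the limma test of the difference for all 5 members. The log2 difference of the responses was 4.25 for Hba-a1, 4.72 for Hba-a2, 4.28 for Hbb-bs, 4.76 for Hbb-bt and 2.81 for Alas2. Without the libraries with Pbsn only Hba-a2 passed, with the direction of all 5 kept.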

How the results depend on the processing

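No alternative that gave a value turned the direction of a member. Alas2 was below the filter in the main fit on water and for DSS in VD mice. It was tested in both with no filter. For DSS in VD mice it was also tested with median-of-ratios scaling, where it passed and was higher. Its log2 differences in those fits are not given here. For DSS in CS mice it gave no value without the libraries with Pbsn. For CS against VD under DSS, the number of genes passing (1923) was 3 with no filter, 2 with the replicate block, 3855 with 1 fit on all groups and 6 without the libraries with Pbsn, and the number of members passing (3) was 0, 0, 5 and 0 under these. With the copies summed, the alpha sum, the beta sum and Alas2 all passed. A count of 5 members there would take each sum once for each of its copies. With the copies summed and the libraries with Pbsn left out together, chosen after seeing the data, 6 genes and 0 members passed. Leaving out 1 library gave 0 to 2054 genes and 0 to 2 members. On water the number of genes passing (54) was 3 with no filter, 7 with the replicate block and 15 without the libraries with Pbsn, with 0 to 275 genes when 1 library was left out and 0 to 0 members. For DSS in VD mice the members passing (4) were 1 with no filter, 3 with 1 fit on all groups and 5 with median-of-ratios scaling. With 1 library left out they were 1 to 4, with 4050 to 5410 genes. For DSS in CS mice the genes passing (8666) were 5217 without the libraries with Pbsn, where fewer libraries and genes were tested, and 6950 to 7909 with 1 library left out, with 4 to 5 members. For the difference of responses the genes passing (2015) were 1042 with no filter and 637 without the libraries with Pbsn, the members passing (5) were 1 without those libraries, and leaving out 1 library gave 1056 to 2515 genes and 4 to 5 members. The cause of these changes was not tested.

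Correlations of the deviations of same-numbered libraries were -0.23 to 0.11 under DSS, -0.30 to 0.05 on water, 0.02 to 0.14 in VD and -0.09 to 0.08 in CS mice. In each comparison the highest was below the highest of differently numbered libraries. With 4 pairs per comparison this cannot show whether the numbers pair the samples. For DSS in VD mice the replicate block lowered the SE of all 4 members tested, for Hba-a2 from 0.53 to 0.30. With the replicate block the members passing were 4 in VD mice, 5 in CS mice and 5 for the difference of responses. Median-of-ratios scaling moved the share of called genes that were higher from 58.8 to 47.2% under DSS and from 57.0 to 46.8% for DSS in CS mice.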
